A study of Mus musculus with 4 samples.

Results

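The genes of RNA polymerases I, II and III and of the translation initiation factors (eIFs) were described in paired cultures of fetal and newborn mouse intestine. They were taken by symbol, as every gene whose name begins with Polr1, Polr2, Polr3 or with Eif and a digit, which gave 66 of the 15123 named genes on the array. Of these, 19 were polymerase genes, with 5 for polymerase I, 8 for polymerase II and 6 for polymerase III, and 47 were initiation factor genes. The rule used no measured value. The RefSeq gene table holds 84 protein-coding genes with such names. Those without a named probe, among them Polr2a, Polr3a, Polr3g, Eif1 and Eif4g1, were not analysed here.

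Small intestine of CD1 wild-type animals was cultured in Matrigel with EGF, Noggin and R-spondin1, and each culture gave round spheroids and budding organoids. Per the labels, both forms were picked out and replated for 3 passages before RNA was taken. Spheroid and organoid RNA of 1 animal was then compared on 2-colour arrays with the dyes swapped. There were 4 animals: 2 fetuses at E16 (embryonic day 16), 1 fetus at E18 and 1 newborn at P0, the day of birth. The E16 pairs are called the first and the second. E18 and P0 had 1 animal each, so stage and animal cannot be told apart there.

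Each value is a ratio on the log2 scale, read as likely spheroid over organoid. The titles name the spheroid first, but no label states the numerator or the log base. If the sign ran the other way, every direction below would turn. In all 4 columns the median over genes lay close to 0, from -0.0055 to -0.001, so a ratio says how a gene stood relative to the typical gene. The 94 negative control probes had mean ratios from -0.16 to 0.07, and 19 members had a mean inside that range. Of 9 epithelial marker genes, the keratin Krt18 was higher at 1.44 ± 0.21 (SD, n = 4, adjusted p = 0.0151) and the adhesion molecule Epcam was lower at -0.63 ± 0.095 (SD, n = 4, adjusted p = 0.0181). Of 12 mesenchyme markers, 11 had means inside the negative control range. The exception was the filament gene Vim, with -0.22 and -0.05 at E16, -0.90 at E18 and -0.61 at P0, so its stage order was that of many members (difference 0.62, adjusted p = 0.164), and its part in their ratios was not tested. In whole cultures, fewer cells of a type and less RNA per cell cannot be told apart.

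RNA polymerase I transcribes the large ribosomal RNA precursor in the nucleolus, polymerase II transcribes messenger RNAs, and polymerase III makes transfer RNAs and the 5S ribosomal RNA. The enzymes share some subunits and each has its own large catalytic pair. Initiation factors bring the initiator methionyl-tRNA (eIF2), the mRNA cap (eIF4E, eIF4G, eIF4A) and the scaffold eIF3 to the small ribosomal subunit, and eIF2B recharges eIF2 with GTP after each round. The need for both systems is known to rise with cell growth, and in the intestine protein synthesis is brisk in the crypts, where cells divide.

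For 53 of the 66 members RefSeq gave promoter windows (build GRCm38.p6, from 250 bases before to 50 after a start site). Of these windows 4 are printed, all of them holding a sequence marked below. They belong to the called genes Polr1c (gene ID 20016), Eif2b2 (gene ID 217715) and Eif5a (gene ID 276770), and to Polr3gl (gene ID 69870), the member with the lowest ratio. They lie at chr17:46247996-46248295 on the minus strand (Polr1c), chr12:85219231-85219530 on the plus strand (Eif2b2), chr11:69920581-69920880 on the minus strand (Eif5a) and chr3:96594132-96594431 on the minus strand (Polr3gl). Eif5a has further start sites whose windows are not shown. Capitals mark the E-box CACGTG, the letters that MYC and its relatives are known to bind, and the ETS-type sequence CCGGAAGT, bound by ETS factors such as GABP, both searched on either strand. Some of the further windows of Eif5a hold neither sequence. The windows of Eif2b1 and Eif3b, also called genes, hold neither and are not printed.
Polr1c: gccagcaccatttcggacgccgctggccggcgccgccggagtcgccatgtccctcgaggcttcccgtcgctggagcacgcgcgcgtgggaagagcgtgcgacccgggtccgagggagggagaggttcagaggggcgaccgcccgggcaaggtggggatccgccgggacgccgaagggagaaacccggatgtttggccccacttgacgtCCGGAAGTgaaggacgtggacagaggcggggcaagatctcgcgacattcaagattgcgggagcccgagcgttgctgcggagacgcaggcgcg
Eif2b2: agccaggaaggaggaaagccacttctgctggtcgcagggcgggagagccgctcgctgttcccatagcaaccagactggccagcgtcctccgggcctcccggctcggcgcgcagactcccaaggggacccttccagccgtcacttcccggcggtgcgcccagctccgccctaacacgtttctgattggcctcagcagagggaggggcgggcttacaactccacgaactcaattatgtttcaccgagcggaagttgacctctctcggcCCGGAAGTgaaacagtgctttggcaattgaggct
Eif5a: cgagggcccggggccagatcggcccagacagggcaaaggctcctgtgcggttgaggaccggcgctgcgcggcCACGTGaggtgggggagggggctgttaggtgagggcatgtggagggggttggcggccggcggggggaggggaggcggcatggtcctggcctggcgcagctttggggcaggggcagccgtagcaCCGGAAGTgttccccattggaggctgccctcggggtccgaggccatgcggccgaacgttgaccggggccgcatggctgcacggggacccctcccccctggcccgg
Polr3gl: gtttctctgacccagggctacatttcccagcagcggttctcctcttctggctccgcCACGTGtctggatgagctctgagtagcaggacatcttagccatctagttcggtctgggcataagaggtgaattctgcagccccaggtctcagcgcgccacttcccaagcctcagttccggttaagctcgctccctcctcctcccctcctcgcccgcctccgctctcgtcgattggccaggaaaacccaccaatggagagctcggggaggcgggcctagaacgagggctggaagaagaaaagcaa

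In these windows the ETS-type sequence began 42 bases before the start site of Polr1c, 55 bases before that of Eif5a and 16 bases after that of Eif2b2. The E-box began 178 bases before the start of Eif5a and 194 bases before that of Polr3gl. An E-box stood in a window of 12 of the 53 members (22.6%), against 9.87% of 12213 array genes with a window and 8.09% of all 27025 genes in the table. The ETS-type sequence was also found for 12 members (22.6%), against 6.49% of array genes and 4.31% of all genes. Members had on average 1.28 windows each and array genes 1.25. TATAAA was found on either strand for 4 members (7.55%, against 14.3% of array genes). A start of C followed by 4 pyrimidines, as in the 5' terminal oligopyrimidine messages whose translation responds to growth signals, was annotated for 4 members (7.55%, against 2.82%). In the printed windows no matches of these sequences overlapped. The median ratio of members with an E-box was 0.12, and 0.13 without one. With the ETS-type sequence it was 0.18, and 0.13 without. A match is a description of the letters and not of binding.

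Over the 4 pairs, 5 of the 66 members passed limma's test of the mean ratio against 0 (adjusted p under 0.05 over all genes), all higher in the likely spheroid direction, which is 7.58% of the members against 3.02% of all genes. They were Polr1c, a subunit that polymerases I and III share, Eif2b1 and Eif2b2, the alpha and beta regulatory subunits of eIF2B, the eIF3 scaffold subunit Eif3b, and Eif5a, the hypusine-bearing factor that helps ribosomes through difficult stretches of peptide. No member passed as lower, against 1.34% of all genes. A pair beyond the range of single negative control values was found for 7781 of the 15123 genes and for 57 members. Among these, 456 genes and 5 members passed as higher, and 189 genes and 0 members as lower. Shares over all genes, here and below, thus include genes that never left that range. At an unadjusted p under 0.05 there were 17 members higher and 4 lower. That is 21 of 66 members, against 3157 of 15123 genes in either direction. No ratio of a member's mean reached 1 in size: they ran from -0.67 to 0.46. None of the 5 calls held when either E16 pair or the P0 pair was left out, and without the E18 pair those of Eif2b2 and Eif5a did. Over 10 alternatives each of the 5 passed in 4 to 6, with adjusted p from 0.0108 to 0.459.

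**Figure D1:**
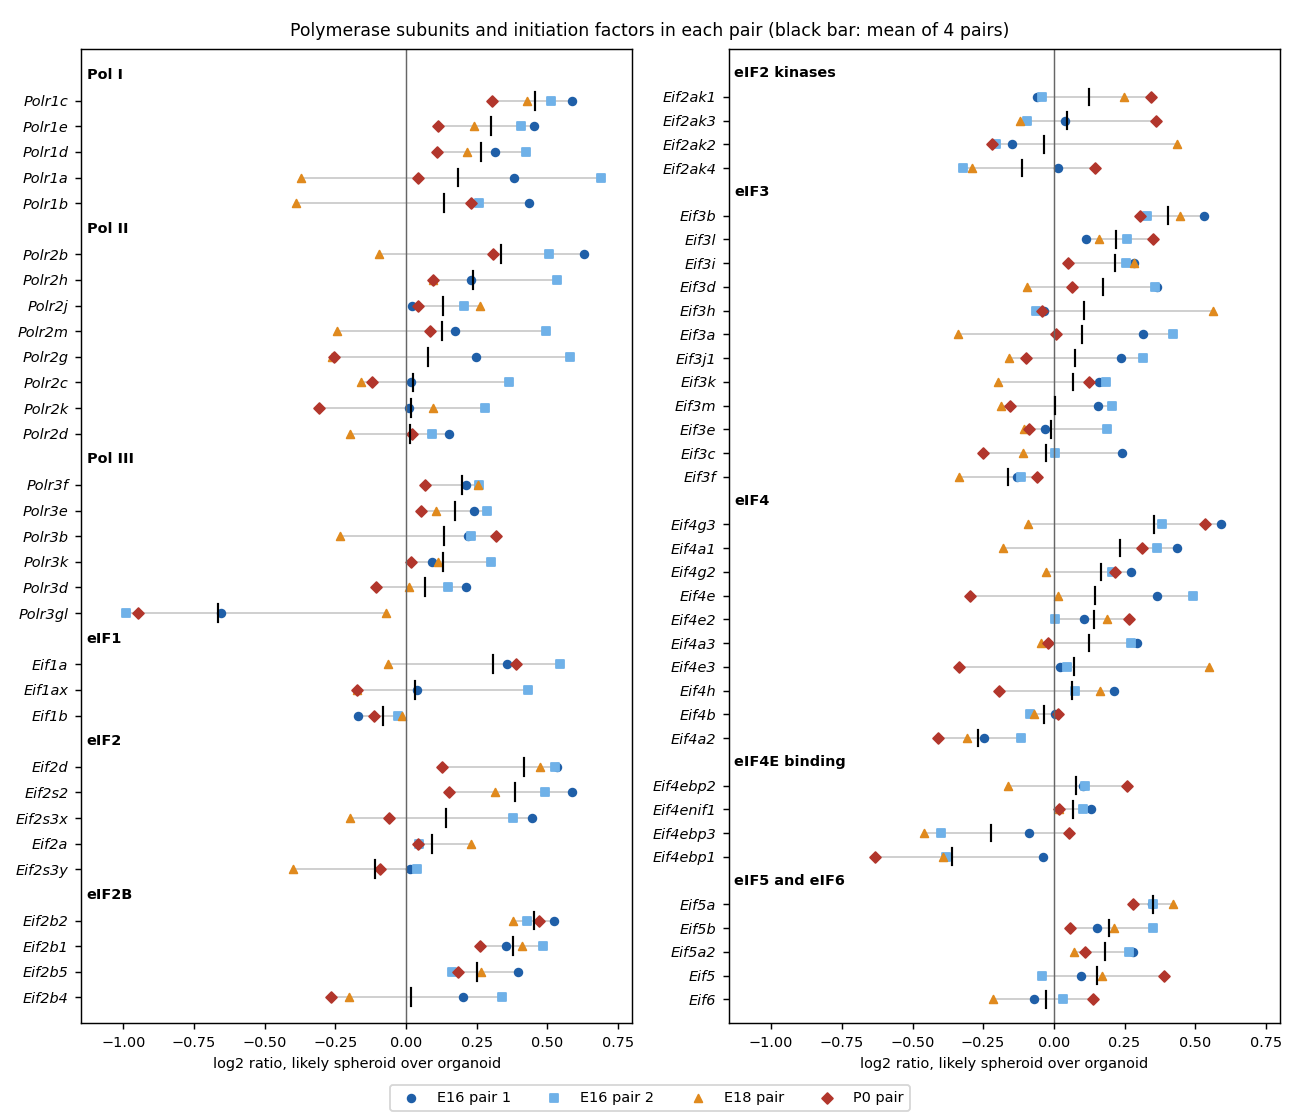
Log2 ratio (horizontal axis, likely spheroid over organoid) of each of the 66 genes in the 4 pairs, grouped by complex; points are pairs, grey lines their range and black bars the mean of the pairs. The called genes Polr1c, Eif2b1, Eif2b2, Eif3b and Eif5a sit to the right of 0 in every pair, and Polr3gl lies far to the left in all but the E18 pair.

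Polr1c had ratios of 0.59 and 0.51 in the E16 pairs, 0.43 in the E18 pair and 0.30 in the P0 pair, with a mean of 0.46 ± 0.12 (SD, n = 4), 1.37-fold, and an adjusted p of 0.0381. All pairs were positive and both E16 ratios stood above both later ones. Its 2 probes gave means of 0.44 and 0.47, so they told the same story. Eif2b2 had 0.52 and 0.43 at E16, 0.38 at E18 and 0.47 at P0, a mean of 0.45 ± 0.062 (SD, n = 4, adjusted p = 0.0191). The E16 and later ratios of Eif2b2 overlapped, and the gene rests on 1 probe. Eif2b1 had 0.35 and 0.48 at E16, 0.41 at E18 and 0.26 at P0, a mean of 0.38 ± 0.093 (SD, n = 4, adjusted p = 0.0362), again with overlapping stages and with 2 probes that agreed (0.39 and 0.37).

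The remaining called genes rest on probes that differed. Eif5a had 0.35 in both E16 pairs, 0.42 at E18 and 0.28 at P0, a mean of 0.35 ± 0.058 (SD, n = 4, adjusted p = 0.0249). Of its 3 probes, 2 had means of 0.59 and 0.45, while the third stayed at 0.01 in the mean, inside the negative control range. Eif3b had 0.53 and 0.33 at E16, 0.45 at E18 and 0.30 at P0, a mean of 0.40 ± 0.11 (SD, n = 4, adjusted p = 0.0381). Its 2 probes parted in the E18 pair, at 1.02 and -0.12, so the small spread of Eif3b comes from averaging values that opposed each other. On its constitutive probe alone Eif3b had a mean of 0.22 and an adjusted p of 0.459. Probes of 1 gene can read different transcripts, and which transcripts these probes read was not tested.

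**Figure D2:**
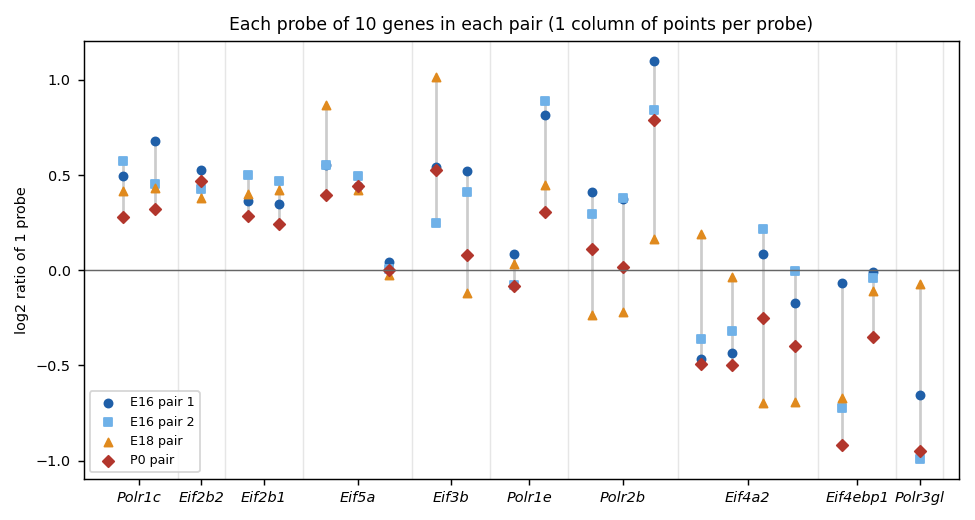
Log2 ratio of every probe (1 column of points per probe) for the 5 called genes and for Polr1e, Polr2b, Eif4a2, Eif4ebp1 and Polr3gl, with 1 point per pair. The probes of Polr1c and of Eif2b1 coincide, 1 probe of Eif5a stays at 0, and those of Eif3b and Eif4a2 part in the E18 pair.

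Of the 5 polymerase I subunits, 3 were positive in every pair. Their median ratio was 0.43 and 0.42 in the E16 pairs, 0.22 in the E18 pair and 0.11 in the P0 pair, where the median of all genes was between -0.004 and 0.003. All 5 had both E16 ratios above both later ratios, as had 24.8% of all genes. With the shared subunits of polymerase II added, the medians at E18 and P0 were 0.094 and 0.11, and on the first constitutive probe the median of the later means went from 0.16 to 0.035. Polr1a, the largest subunit, which holds the active site, had 0.38 and 0.69 at E16, -0.37 at E18 and 0.04 at P0. Polr1b, the second-largest subunit, had 0.43 and 0.26 at E16, -0.39 at E18 and 0.23 at P0. For both catalytic subunits the E18 pair was the low one, and neither mean passed (0.19 ± 0.46 and 0.13 ± 0.36, SD, n = 4, adjusted p = 0.694 and 0.726). Polr1d, the partner of Polr1c, averaged 0.27 ± 0.13 (SD, n = 4, adjusted p = 0.110). Polr1e averaged 0.30 ± 0.16 (SD, n = 4, adjusted p = 0.113), from 1 probe near 0 (-0.01) and 1 at 0.61. Of the 8 measured polymerase I factors, a list that includes the subunits filed under the older names Twistnb, Cd3eap and Znrd1, 0 passed. The medians of that list were 0.08 and 0.28 at E16, -0.18 at E18 and 0.02 at P0.

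Polymerase II subunits had a median of 0.16 and 0.43 in the E16 pairs, -0.13 in the E18 pair and 0.03 in the P0 pair. All 8 were positive in both E16 pairs (36.2% of all genes were), and for 6 both E16 ratios stood above both later ones (24.8% of all genes). Polr2b, the second-largest subunit, had 0.63 and 0.50 at E16, -0.10 at E18 and 0.31 at P0, a mean of 0.34 ± 0.32 (SD, n = 4, adjusted p = 0.284). One of its 3 probes read higher than the others, at 0.72 against 0.14 in the mean of the pairs. Polr2d, a subunit of the stalk with Polr2g, had the lowest mean, at 0.02 ± 0.15 (SD, n = 4), with 0.15 and 0.09 at E16, -0.20 at E18 and 0.02 at P0. Polr2g itself had 0.25 and 0.58 at E16 against -0.26 at E18 and -0.25 at P0, so the groups did not overlap. Polr2h and Polr2k, which all 3 enzymes share, averaged 0.24 ± 0.21 and 0.02 ± 0.25 (SD, n = 4), and neither passed. Of 22 general factors of polymerase II, such as the TFIIH subunits, 0 passed, with medians of 0.11 and 0.18 at E16, 0.02 at E18 and 0.03 at P0.

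Polymerase III subunits gave medians of 0.21 and 0.24 at E16, 0.06 at E18 and 0.03 at P0. The largest mean was that of Polr3f, at 0.20 ± 0.089 (SD, n = 4, adjusted p = 0.104), with 0.21 and 0.26 at E16, 0.25 at E18 and 0.07 at P0. Polr3b, the second-largest subunit, had 0.22 and 0.23 at E16, -0.23 at E18 and 0.32 at P0, so its later ratios lay on both sides of the E16 ones. Polr3gl went the other way. It had -0.66 and -0.99 at E16, -0.07 at E18 and -0.95 at P0, a mean of -0.67 ± 0.42 (SD, n = 4, adjusted p = 0.149), and was the lowest of all 66 members. Polr3gl and its paralogue Polr3g are alternative subunits of the enzyme. Polr3gl is known as the form of most adult tissues and Polr3g as that of undifferentiated cells, and Polr3g was not analysed here. The E18 pair alone stood near 0, and without that pair Polr3gl passed as lower (mean -0.86, adjusted p = 0.0453). In that setting 1 of 66 members passed as lower, against 306 of 15123 genes. Polr3gl rests on 1 probe. Of 16 polymerase III factors, such as TFIIIC and SNAPc subunits, 0 passed, with medians of 0.17 and 0.15 at E16, -0.08 at E18 and 0.02 at P0.

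The group of genes named for eIF2 (5 genes, 3 of them subunits of the factor) had medians of 0.45 and 0.38 at E16, 0.23 at E18 and 0.04 at P0. For the subunits alone, a grouping chosen after the values were seen, they were 0.45 and 0.38 at E16, -0.20 at E18 and -0.06 at P0, so the later medians turned negative. Eif2s2, the beta subunit, had 0.59 and 0.49 at E16, 0.32 at E18 and 0.15 at P0, a mean of 0.39 ± 0.19 (SD, n = 4, adjusted p = 0.103). Eif2s3x, the gamma subunit that binds GTP and the initiator tRNA, had 0.45 and 0.38 at E16 but -0.20 at E18 and -0.06 at P0. Its E16 and later ratios did not overlap and differed in sign. Eif2s3y, its near-copy on the Y chromosome, had the lowest mean of the group, -0.11 ± 0.20 (SD, n = 4), with 0.01 and 0.04 at E16, -0.40 at E18 and -0.09 at P0. Cross-hybridisation between these near-copies was not tested. Eif2d, which is no eIF2 subunit and can deliver the initiator tRNA without GTP, had 0.53 in both E16 pairs, 0.47 at E18 and 0.13 at P0, a mean of 0.42 ± 0.19 (SD, n = 4, adjusted p = 0.0929).

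The eIF2B subunits had medians of 0.38 in both E16 pairs, 0.32 at E18 and 0.22 at P0, and were thus the group whose medians were positive and over 0.2 in every pair. Besides Eif2b1 and Eif2b2, the catalytic subunit Eif2b5 had 0.40 and 0.16 at E16, 0.27 at E18 and 0.18 at P0 (mean 0.25 ± 0.11, SD, n = 4, adjusted p = 0.0880). Eif2b4 departed from the other subunits, with 0.20 and 0.34 at E16 and -0.20 and -0.27 later, a mean of 0.02 ± 0.30 (SD, n = 4). Eif2b3 was not analysed here.

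The eIF2 kinases shut eIF2 down under stress, through haem shortage (Eif2ak1), double-stranded RNA (Eif2ak2), unfolded protein in the endoplasmic reticulum (Eif2ak3) and amino acid shortage (Eif2ak4). Their medians were -0.02 and -0.15 at E16, 0.06 at E18 and 0.25 at P0, and none of the 4 was positive in both E16 pairs. Eif2ak1 had -0.06 and -0.04 at E16, 0.25 at E18 and 0.34 at P0, with no overlap between the stages. Its 2 probes parted in the second E16 pair, at 0.25 and -0.33. On the first of these probes the stages did overlap, with 0.09 at E18. Eif2ak4 had the lowest mean, -0.11 ± 0.23 (SD, n = 4), with 0.01 and -0.32 at E16, -0.29 at E18 and 0.15 at P0. Neither kinase passed in either comparison. Of 12 genes of the stress response downstream of these kinases, 1 passed as lower, against 1.34% of all genes. It was the stress transcription factor Ddit3 (-1.64 ± 0.39, SD, n = 4, adjusted p = 0.0285). Ddit3 had -1.52 and -1.56 at E16, -1.29 at E18 and -2.21 at P0. The median of this list was 0.05 and -0.26 at E16, -0.45 at E18 and -0.70 at P0. In every pair 5 of its genes were negative, against 14.4% of all genes. Chac1 (-1.73 ± 0.94, adjusted p = 0.113) and Atf5 (-1.46 ± 0.72, adjusted p = 0.0962; SD, n = 4) were of similar size and missed the threshold.

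Of the 12 eIF3 subunits, 1 passed (Eif3b), against 3.02% of all genes called higher, and 7 had both E16 ratios above both later ones, against 24.8%. The group median was 0.20 and 0.23 at E16, -0.11 at E18 and -0.02 at P0. Eif3a, the largest subunit and part of the core with Eif3b and Eif3c, had 0.31 and 0.42 at E16, -0.34 at E18 and 0.01 at P0. Eif3m had 0.16 and 0.21 at E16 and -0.19 and -0.15 later, and Eif3j1 had 0.24 and 0.32 at E16 and -0.16 and -0.10 later. In each of these the groups did not overlap. Eif3j1 has a near-copy, Eif3j2, whose transcripts its probes may also read. Eif3h departed from the pattern with -0.03 and -0.06 at E16, 0.56 at E18 and -0.04 at P0, so its E18 pair alone stood away from 0. Eif3f had the lowest mean of the group, at -0.16 ± 0.12 (SD, n = 4, adjusted p = 0.227), with -0.13 and -0.12 at E16, -0.34 at E18 and -0.06 at P0.

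In the cap-binding eIF4 group (10 genes) the medians were 0.24 and 0.14 at E16, -0.04 at E18 and -0.002 at P0, and no gene passed. Eif4e, which binds the cap, had 0.37 and 0.49 at E16, 0.02 at E18 and -0.30 at P0. Its paralogues did not follow it: Eif4e2, which represses translation, had 0.11 and 0.00 at E16, 0.19 at E18 and 0.27 at P0. Eif4e3 had 0.02 and 0.05 at E16, 0.55 at E18 and -0.33 at P0. The helicase paralogues also stood apart. Eif4a1, the main helicase of initiation, had 0.43 and 0.37 at E16, -0.18 at E18 and 0.31 at P0 (mean 0.23 ± 0.28, SD, n = 4, adjusted p = 0.392), and its pseudogenes could share its probes. Eif4a2, known to act also with the CCR4-NOT deadenylase complex, was negative in every pair, with -0.25 and -0.12 at E16, -0.31 at E18 and -0.41 at P0 (mean -0.27 ± 0.12, SD, n = 4, adjusted p = 0.0955). Its 4 probes had means from -0.32 to -0.16, but in the E18 pair they ran from -0.70 to 0.19.

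The scaffold Eif4g3 had the highest mean of the eIF4 group, 0.35 ± 0.31 (SD, n = 4, adjusted p = 0.254), with 0.59 and 0.38 at E16, -0.09 at E18 and 0.54 at P0. Eif4g2, a relative that does not bind eIF4E, had 0.27 and 0.20 at E16, -0.03 at E18 and 0.22 at P0. In both the E18 pair was the low one, and without it Eif4a1 and Eif4g3 passed as higher (means 0.37 and 0.50, adjusted p = 0.0484 and 0.0497). In that setting 4 of 66 members passed as higher, against 434 of 15123 genes. The eIF4E-binding proteins, which hold eIF4E away from eIF4G when mTOR is off, were measured for 3 genes and had medians of -0.04 and -0.38 at E16, -0.39 at E18 and 0.06 at P0. With Eif4enif1, a transporter that also binds eIF4E and had 0.13 and 0.10 at E16 and 0.02 in both later pairs, the medians of the eIF4E-binding group were 0.03 and -0.14 at E16, -0.28 at E18 and 0.04 at P0, a turn of sign in the first E16 pair. Eif4ebp1 had -0.04 and -0.38 at E16, -0.39 at E18 and -0.63 at P0, a mean of -0.36 ± 0.24 (SD, n = 4, adjusted p = 0.169). Eif4ebp2 had 0.10 and 0.11 at E16, -0.16 at E18 and 0.26 at P0. Eif4ebp3 had -0.09 and -0.40 at E16, -0.46 at E18 and 0.06 at P0. Only Eif4ebp1 of the 3 was negative in every pair.

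The eIF1 group had 3 genes and no call, with medians of 0.04 and 0.43 at E16, -0.06 at E18 and -0.11 at P0. Eif1a had 0.36 and 0.55 at E16, -0.06 at E18 and 0.39 at P0 (mean 0.31 ± 0.26, SD, n = 4, adjusted p = 0.244). Eif1ax, its near-copy on the X chromosome, had 0.04 and 0.43 at E16, -0.17 at E18 and -0.18 at P0, and which of the copies the probes read was not tested. Eif1b, a relative of the start codon selector eIF1, had -0.17 and -0.03 at E16, -0.01 at E18 and -0.11 at P0, within the range of single values of the negative control probes. The group of genes named for eIF5 and eIF6 had medians of 0.15 and 0.26 at E16, 0.17 at E18 and 0.14 at P0. Eif5a2, the less widely expressed paralogue of Eif5a, had 0.28 and 0.27 at E16, 0.07 at E18 and 0.11 at P0, a mean of 0.18 ± 0.11 (SD, n = 4, adjusted p = 0.152). Eif5, which triggers GTP hydrolysis on eIF2, had 0.10 and -0.04 at E16, 0.17 at E18 and 0.39 at P0. Eif6, which keeps the ribosomal subunits apart, had -0.07 and 0.03 at E16, -0.22 at E18 and 0.14 at P0 and was the lowest of the group (mean -0.03 ± 0.15, SD, n = 4).

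**Figure D3:**
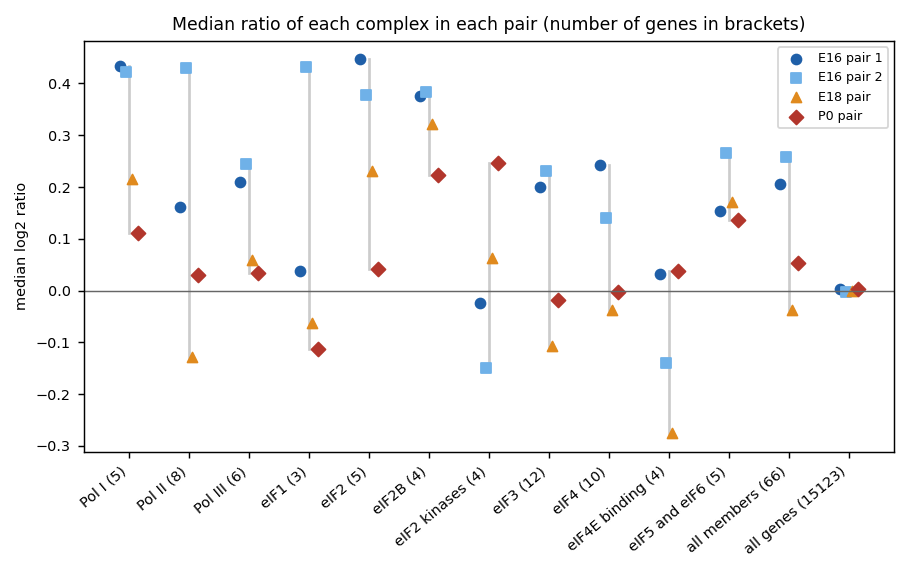
Median log2 ratio of the measured genes of each complex in each pair, with the number of genes in brackets; grey lines join the lowest and highest pair. Polymerase I, II and III, eIF1, eIF2, eIF2B, eIF3 and eIF4 have both E16 medians above both later medians, the eIF2 kinases have both below, and all genes stay near 0.

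By stage, both E16 pairs had positive ratios for 51 of the 66 members (77.3%), against 36.2% of all genes. For 33 members (50%) both E16 ratios stood above both later ones, against 24.8% of all genes, and for 3 (4.55%) both stood below, against 25.9%. Over all 4 pairs 22 members were positive throughout (33.3%, against 16.3% of genes) and 5 negative throughout (7.58%, against 14.4%). Among genes with a pair beyond the negative control values, 3744 of 7781 were positive in both E16 pairs, against 48 of 57 members. Both E16 ratios stood above both later ones for 2338 of these genes and 29 members, and below for 2388 and 3. Positive throughout were 1950 of these genes and 21 members, and negative throughout 1257 and 3. The median of all members was 0.21 and 0.26 in the E16 pairs, -0.04 at E18 and 0.05 at P0.

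No member passed limma's test of E16 against later ratios (2 pairs against 2), where 0% of all genes passed, and the lowest adjusted p of a member was 0.105. At an unadjusted p under 0.05, 15 members had the higher ratio at E16 (22.7%, against 9.59% of genes) and 1 the lower, Eif2ak1 (1.52%, against 9.48%). Among genes with a pair beyond the negative control values, 1279 of 7781 were higher and 1319 lower, against 15 and 1 of 57 members. The largest moderated t statistics toward E16 belonged to Eif2s3x, with a difference of 0.54 ± 0.076 (SE, adjusted p = 0.105), Eif3m with 0.35 ± 0.053, Eif2b4 with 0.50 ± 0.075 and Eif3j1 with 0.41 ± 0.061 (SE, adjusted p = 0.110 for these 3). Toward the later pairs they belonged to Eif2ak1, at -0.35 ± 0.061 (SE, adjusted p = 0.127), Eif4e2 at -0.17 ± 0.069, Eif5 at -0.25 ± 0.11 and Eif3h at -0.31 ± 0.24 (SE, adjusted p from 0.333 to 0.632). The small SE of Eif2ak1 is that of an average over probes that opposed each other in the second E16 pair. The difference was larger for Polr1a, at 0.70 ± 0.21 (SE, adjusted p = 0.225), but so was the gap between its later pairs.

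Set against each later animal alone, with the spread taken from the E16 pairs, the picture differed by animal. Against the E18 pair, 3 members were higher at E16 (4.55%, against 4.57% of genes) and 2 lower (3.03%, against 5.64%). They were Eif2s3x, Eif3a and the helicase Eif4a1, and on the lower side Eif2ak2 and Eif3h. Eif2ak2 had -0.15 and -0.20 at E16, 0.44 at E18 and -0.22 at P0. Against the P0 pair 0 members passed, where 2.93% of genes did. The shares of members were at or below those of all genes in both. The E18 ratio was the lowest of the 4 for 30 members (45.5%, against 28.9% of genes) and the P0 ratio for 25 (37.9%, against 23.8%). Across the 66 members, which share the arrays, the ratios of the E16 pairs had a Pearson correlation of 0.79 with each other. The E18 pair correlated with them at 0.22 and 0.16, and the P0 pair at 0.59 and 0.44. Over all 15123 genes the order of these values was the same: the E16 pairs correlated at 0.92, the E18 pair with them at 0.39 and 0.32, and the P0 pair at 0.65 and 0.58. The E18 and P0 pairs correlated with each other at 0.22 over the members and at 0.62 over all genes.

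**Figure D4:**
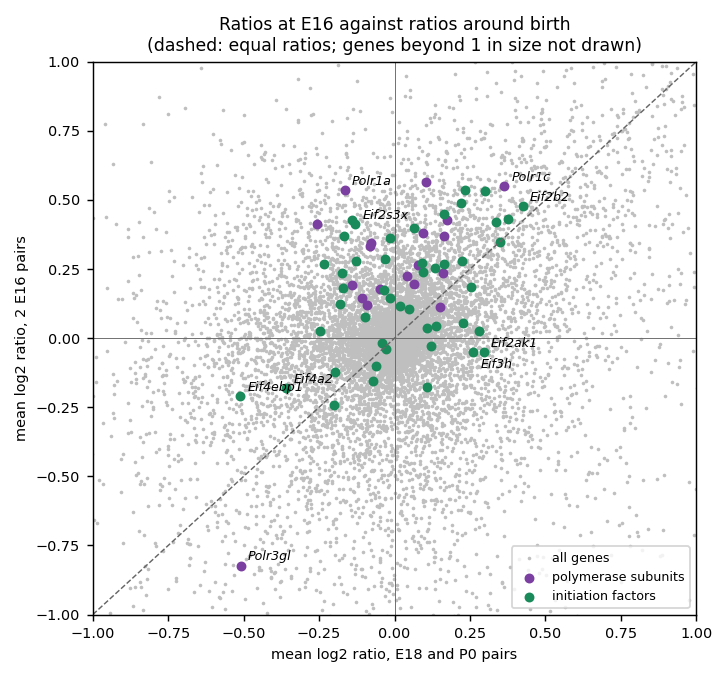
Mean log2 ratio of the E16 pairs (vertical axis) against that of the E18 and P0 pairs (horizontal axis) for the 66 members and, in grey, all genes. Most members lie above the dashed line of equal ratios, Eif2ak1 and Eif3h lie below it, and Polr3gl lies at -0.82 and -0.51.

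The genes around these machines were described from lists by counts and medians. Of 19 ribosome assembly genes of the nucleolus, such as nucleolin (Ncl), fibrillarin (Fbl) and nucleophosmin (Npm1), 18 were positive in both E16 pairs (against 36.2% of all genes) and 15 had both E16 ratios above both later ones (against 24.8%). Their medians were 0.43 and 0.61 at E16, -0.14 at E18 and 0.07 at P0, and 0 passed in either comparison. Ncl had 0.37 and 0.82 at E16, -0.57 at E18 and -0.12 at P0. Of 12 elongation and termination genes, 7 were positive in both E16 pairs, with medians of 0.14 and 0.16 at E16, -0.01 at E18 and 0.05 at P0. The elongation factor Eef1a1 departed from them with -0.33 and 0.12 at E16, -1.19 at E18 and -0.49 at P0. Of 5 poly(A)-binding genes, 2 were positive in both E16 pairs, and 0 of the elongation or poly(A)-binding genes passed.

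Of 17 growth control genes 1 was positive in both E16 pairs and 0 passed. That gene was Myc, which drives ribosome production, with 0.75 and 0.57 at E16, -0.10 at E18 and 0.07 at P0 (mean 0.32 ± 0.40, SD, n = 4, adjusted p = 0.407). Ddit4, an inhibitor of mTOR complex 1, had -0.95 and -1.12 at E16, 1.28 at E18 and 0.46 at P0 (mean -0.08 ± 1.15, SD, n = 4, adjusted p = 0.954). Proliferation genes had medians in the same order of pairs as the members. All 13 measured, among them Top2a and Mcm2, had both E16 ratios above both later ones (against 24.8% of all genes), with medians of 0.35 and 0.46 at E16, -0.48 at E18 and -0.29 at P0. The summed log2 ratio of the list was 4.60 and 6.24 at E16, -6.74 at E18 and -3.75 at P0. Its part in the ratios of the polymerase and initiation factor genes was not tested.

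**Figure D5:**
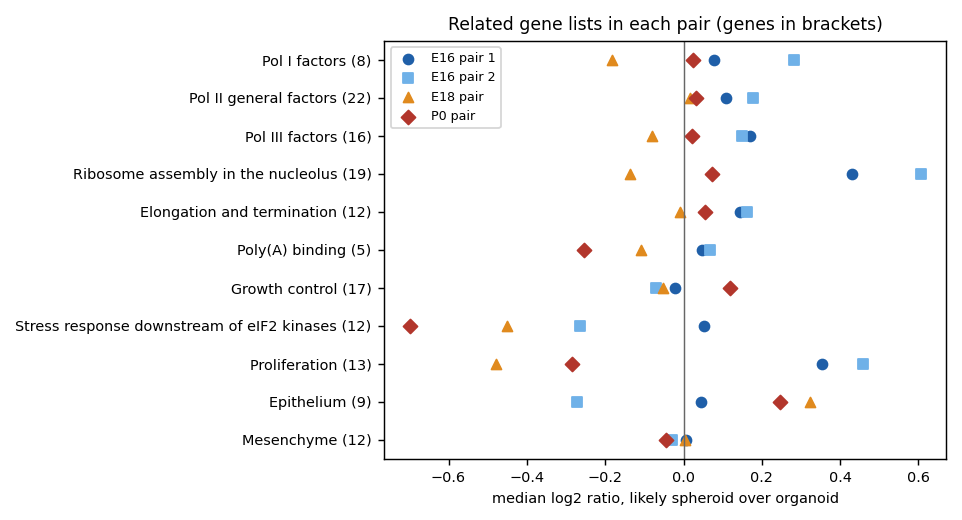
Median log2 ratio of each related gene list in each pair, with the number of measured genes in brackets. All lists but growth control, epithelium and mesenchyme have both E16 pairs to the right of both later pairs. The stress response list lies furthest left at P0, and the medians of the mesenchyme markers stay near 0.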

How the data were processed

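The deposited values are 1 ratio per probe and animal for 38083 probes, taken as log2 ratios made by the authors from dye-swapped 2-colour arrays, per the labels. The sources used here do not give how the dyes were combined, the background correction or the normalization. A log10 scale was set aside because values reach 7.51. No intensities were used here, so depth of signal is unknown and the number of arrays limits the precision.

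Of the probes, 22941 were named for 1 gene each by the platform annotation, which can be old, and 15142 were unnamed here. Any probe annotated to several genes was dropped before this count and is among the unnamed. All named gene IDs were found in the RefSeq table of GRCm38.p6. The 22305 named probes with a measuring prefix were averaged to 15123 genes. The members had 107 probes. In 32 members with more than 1 probe, means lay over 0.5 apart in 3 and over 1 apart in 0.

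Tests were two-sided fits of lmFit and eBayes from limma 3.58.1 (R 4.3.3). P-values were adjusted by Benjamini and Hochberg's method across the 15123 genes, and 0.05 was the threshold. The mean of the 4 pairs was set against 0, and the 2 E16 pairs against the E18 and P0 pairs. limma was also tested on simulated data. The labels name the E16 pairs as biological replicates of separate animals. Members, lists and tests were chosen with earlier results of these data known. Values in every pair are printed for members past the threshold, the highest and lowest mean of each complex, the 4 largest moderated t per direction by stage, paralogue sets and the largest polymerase subunits. Further members and list genes that are named serve as examples and were picked with their values in view. The alternatives tried were column scaling, probe choice, array weights, a robust prior, other thresholds, averaging the E16 pairs, single later animals and leaving out each pair.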

Additional observations from a re-analysis of the deposited data

Results flagged for a closer look

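In 2 of 49 items checked (38 named genes and 11 complex medians), 1 pair stood away from the other 3 by a gap whose share of the whole range passed Dixon's critical value for 4 samples, which chance gives in about 1 of 20 groups. Eif2d had a ratio of 0.128 in the P0 pair, while the other pairs lay between 0.474 and 0.535. Eif3h had a ratio of 0.562 in the E18 pair, while the other pairs lay between -0.0625 and -0.0345. Over all 66 members, 6 would meet the same criterion.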

How the results depend on the processing

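With 4 animals and most ratios under 0.5 in size, the calls depended on the setting. The count of members called higher, 5, became 0 with the E16 pairs averaged to 1 value, 11 with array weights, 2 on the first constitutive probe, 0 where a mean of at least 1 was also asked, and 0 to 4 without 1 pair. Over all genes the count called higher was 457. It became 4 with the E16 pairs averaged, 893 with array weights, 364 on the first constitutive probe and 0 to 434 without 1 pair. The array weights were 2.08 and 1.39 for the E16 pairs, 0.55 for the E18 pair and 0.63 for the P0 pair. Without the second E16 pair limma called 0 genes of the array, with 2346 at an unadjusted p under 0.05. The count called lower, 0, became 1 (Eif4a2 or Polr3gl) at most: 1 at an adjusted p of 0.10, and 0 to 1 without 1 pair. The stage count, 0, became 5 against the E18 pair alone and ran from 0 to 5 without 1 pair. Column scaling, the median of probes and a robust prior left 5, 0 and 0. Of 184 complex medians recomputed, 177 moved by less than the SD of that complex's medians over the 4 pairs. That SD includes the difference between the stages. Leaving out a later pair cannot move an E16 median, nor an E16 pair a later median, so those values were fixed in advance. At E16 the eIF4E-binding median became -0.21 among members beyond the negative control probes and -0.21 for the Eif4ebp genes only, and that of eIF5 and eIF6 became 0.31 on the first constitutive probe. The later median of eIF2 became -0.13 for its subunits only. The subunit and Eif4ebp subsets were chosen after seeing the data. The later median of eIF5 and eIF6 became 0.21 beyond the negative control probes. Without 1 pair the later eIF4E-binding median ran from -0.28 to 0.038, and the E16 median of eIF5 and eIF6 from 0.15 to 0.26.

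No called value turned its sign. On the first constitutive probe the mean of Eif1ax became -0.051, the stage difference of Eif4e2 0.078 and that of Eif4e3 0.0040. With the median of probes that of Eif5a became 0.059. The cause was not tested. Without 1 pair, means ran from -0.029 to 0.087 (Polr2d), -0.089 to 0.11 (Eif2b4), -0.084 to 0.034 (Eif6), -0.046 to 0.16 (Eif3h), -0.0062 to 0.15 (Eif3j1), -0.062 to 0.069 (Eif3m), -0.10 to 0.10 (Eif1ax) and -0.088 to 0.21 (Eif4e3). Stage differences, among them those of Polr3gl (-0.31), Eif4g3 (0.27) and Polr3b (0.18) over all pairs, ran from -0.045 to 0.16 (Eif3b), -0.072 to 0.070 (Eif5a), -0.019 to 0.17 (Polr3f), -0.75 to 0.12 (Polr3gl), -0.11 to 0.034 (Eif1b), -0.30 to 0.14 (Eif2ak4), -0.063 to 0.21 (Eif3f), -0.048 to 0.58 (Eif4g3), -0.15 to 0.20 (Eif6), -0.51 to 0.37 (Eif4e3), -0.15 to 0.27 (Eif4ebp2), -0.30 to 0.22 (Eif4ebp3) and -0.10 to 0.46 (Polr3b). The test of the mean ratio is already paired, since each ratio is taken within 1 animal. The stages come from different animals and cannot be paired with each other. Stage as a random block was not run, since the 4 arrays gave no estimate of its correlation.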
